A study of Mus musculus with 16 samples.

Results

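Skeletal muscle contractile and excitation genes were followed in ear skin of mice treated with calcipotriol (MC903). The 48 genes were taken by symbol from a table of 45777 genes and all 48 passed the filter on low counts. They comprise 11 genes of the fast fibre apparatus, 8 of the slow fibre apparatus and 17 sarcomere genes assigned here to neither fibre type. A further 7 are genes of excitation and calcium handling and 5 of energy supply and oxygen storage. The 3 libraries of mice given an antibody against oncostatin M (anti-OSM), a cytokine of the interleukin-6 family, were compared with 3 of mice given an antibody against Ly6G (anti-Ly6G), a neutrophil surface protein, antibodies used in the study to ask what oncostatin M and neutrophils contribute to the inflammation.

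All 6 libraries were polyA RNA of ear skin from wild-type C57BL/6 mice. Both groups had 50 µM MC903, an analogue of vitamin D used to inflame mouse skin as a model of atopic dermatitis, put on both ears in 20 µL of ethanol on each of 10 days. The anti-OSM mice received 20 µg of antibody per mouse into the skin every other day, whereas the anti-Ly6G mice received 200 µg per mouse into the peritoneum 2 days before and 1 and 4 days after MC903. The series as a whole also mentions ovalbumin, which the protocol text of these groups does not name. Ethanol controls and ears with MC903 alone were not analysed here, no isotype antibody is named, and neither the age of the mice nor the day of collection is given in these sources. Antibody, dose, route and schedule changed together, so their effects cannot be told apart, and the labels give no batch. The words lower, fell and fall refer to anti-OSM relative to anti-Ly6G. No library without antibody was compared, so less with anti-OSM and more with anti-Ly6G cannot be told apart.

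Striated muscle contracts when myosin heads of the thick filament pull on actin in the thin filament. The nerve signal opens the release channel of the sarcoplasmic reticulum through a voltage sensor in the membrane, calcium binds troponin C, and a calcium pump then ends the contraction. Fast and slow fibres build the same machine from different isoforms of myosin, troponin, myosin light chain and myosin-binding protein C, and the mouse external ear carries thin striated muscles that are sampled with the skin. Since the libraries are of whole tissue, fewer muscle fibres and less muscle RNA per fibre cannot be told apart.

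Transcripts of the muscle apparatus were lower with anti-OSM, and by unequal amounts. Of the 48 genes 29 were lower and 0 higher with anti-OSM than with anti-Ly6G. The other 19 did not pass edgeR's quasi-likelihood test at a Benjamini-Hochberg adjusted p under 0.05. Among the 19915 genes tested 6.27% were lower and 5.81% higher. No member was higher at an unadjusted p under 0.05 or in DESeq2, which called 31 lower. The members' log2 fold changes, anti-OSM over anti-Ly6G, ranged from -1.43 to 0.31 with a median of -0.46, beside a median of 0.01 over all tested genes. In 36 of the 48 all anti-OSM libraries lay below all anti-Ly6G libraries, which held for 17.3% of all tested genes. Among the largest falls were those of the fast myosin Myh4, the slow myosin Myh7 and the fast myosin-binding protein C Mybpc2. Titin, the calcium pump Atp2a1, the release channel Ryr1 and the creatine kinases were also among them. The 19 that did not pass included the slow troponins Tnni1, Tnnt1 and Tnnc1, the fast light chains Mylpf and Myl1, nebulin, myoglobin and triadin.

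Library totals were 52163179 to 64122588 counts, which put a floor of 3 counts at 0.0466 to 0.0565 CPM (counts per 1000000 after edgeR's TMM scaling of library sizes), and the lowest value of any member was 4.22 CPM. The share of all counts that fell on the members was 0.675%, 0.674% and 0.789% in the anti-OSM libraries against 1.03%, 1.01% and 1.08% in the anti-Ly6G libraries. Every anti-OSM library was below every anti-Ly6G library, and the mean share was 0.687 times that of anti-Ly6G. Anti-OSM replicate 3 had the highest level of its group for 41 of the 48 genes. The count of lower members was 15 without anti-OSM replicate 1, 18 without replicate 2, 28 without replicate 3, and 21, 23 and 25 without anti-Ly6G replicates 1, 2 and 3. A core of 15 genes kept its call in all 6 of these fits: Myh2, Myh4, Mybpc2, Tnni2, Myoz1, Myh7, Ttn, Myom1, Myom2, Atp2a1, Ryr1, Pygm, Eno3, Ckm and Ckmt2. Whether each library stands for its own mouse is not stated in the labels, so the p-values reflect only how much these 6 libraries vary, and that variation may be technical.

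**Figure D1:**
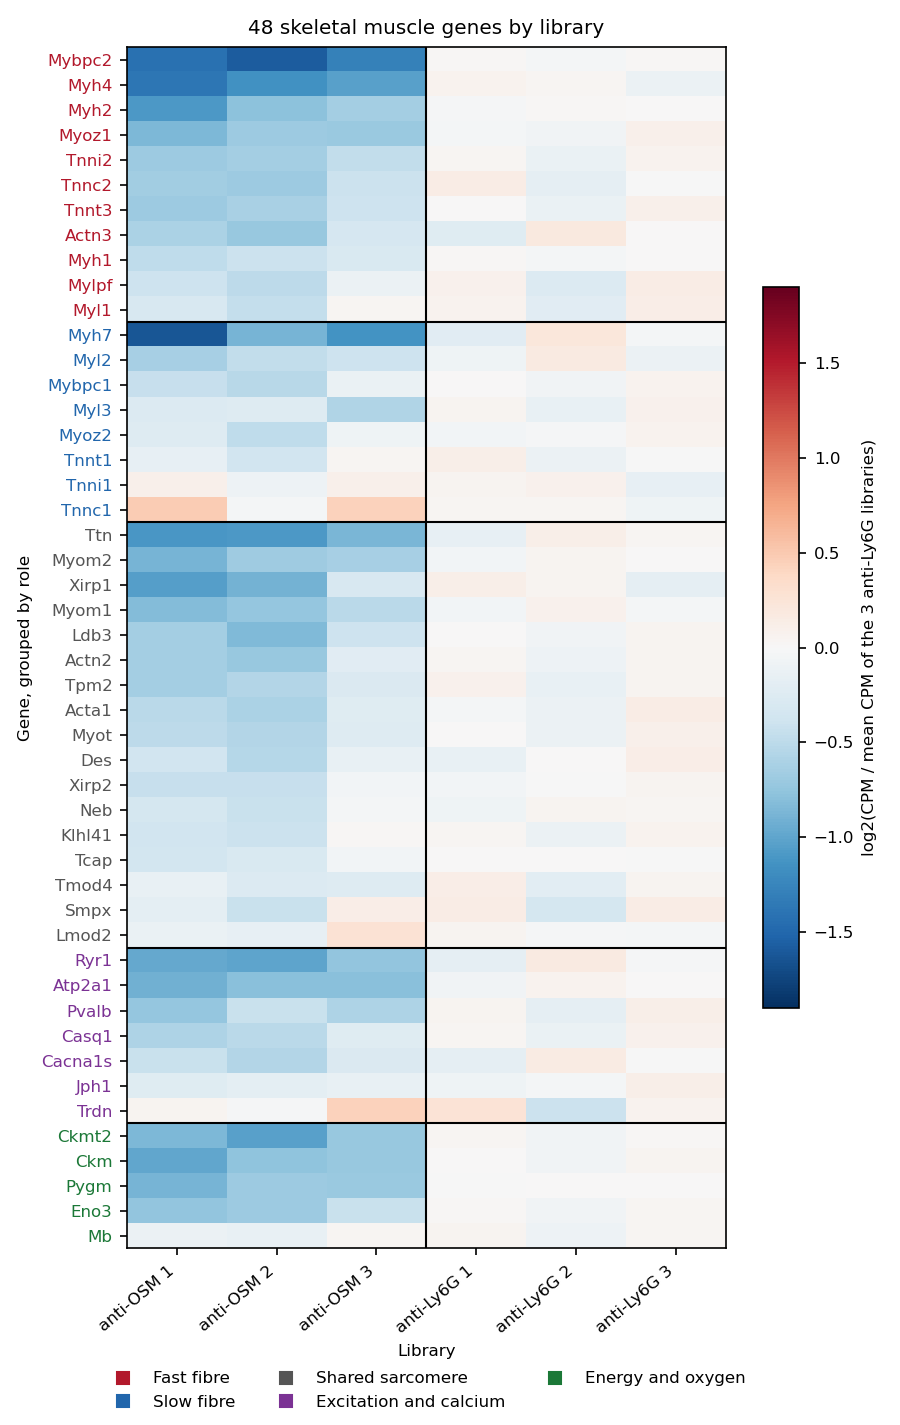
Each row is a gene and each column a library; colour gives log2 of the CPM over the mean CPM of the 3 anti-Ly6G libraries, with genes grouped by role and sorted by fold change. Blue fills the anti-OSM columns for most genes and is palest in anti-OSM replicate 3, and Tnnc1, Tnni1, Lmod2, Trdn and Mb stay near white or turn red.

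The source of these transcripts was checked against markers. The adult skeletal genes Acta1 and Ckm averaged 1302 and 445 TPM (transcripts per 1000000, a level per transcript length) over the 6 libraries. Of 8 genes typical of heart muscle, Nppa and Nkx2-5 had 0 counts in all 6 libraries and the remaining 6 stayed at or under 4.38 CPM in each, although the atrial light chain Myl7 (-2.38) and the myosin Myh6 (-1.32) were called lower. Myl7 kept its call without each library, and Myh6 lost it without either of anti-OSM replicates 1 and 3 and either of anti-Ly6G replicates 1 and 2 (edgeR adjusted p up to 0.126). Of 10 smooth muscle genes 2 were lower, Smtn (-0.37) and Synpo2 (-0.37), and 1 higher, Tagln (0.49, named after its value was seen), with 0 to 2 lower and 0 higher without 1 library, and the defining gene Myh11 was at 22.5 ± 0.871 CPM against 23.9 ± 1.19 CPM (SD, n = 3). Des, which is also among those 10 smooth muscle genes, and Tpm2 are made by smooth muscle too, so those 2 members do not report skeletal fibres alone.

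Promoter sequences are shown for 5 members because they span the range of fold changes: the member with the largest fall (Mybpc2), 3 fast myosin genes that lie in a row on chromosome 11 and fell by different amounts (Myh2, Myh1 and Myh4), and the member with the highest fold change (Tnnc1). Each run is the 250 bases before a RefSeq transcription start in GRCm38.p6, 5′ to 3′ on the gene's strand, and the start used for Mybpc2 lies inside the outer end of the gene as annotated. Capitals mark matches on either strand to the E-box CANNTG, the MCAT element CATTCC, the MEF2 and CArG consensus, or the TATA box TATAAA.
Mybpc2 (chr7:44524670-44524919, minus strand): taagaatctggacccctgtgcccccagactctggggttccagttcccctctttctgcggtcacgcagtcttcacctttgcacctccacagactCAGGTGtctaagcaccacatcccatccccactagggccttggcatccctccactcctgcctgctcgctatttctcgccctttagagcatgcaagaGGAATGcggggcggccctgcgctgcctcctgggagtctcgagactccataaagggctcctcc
Myh2 (chr11:67170777-67171026, plus strand): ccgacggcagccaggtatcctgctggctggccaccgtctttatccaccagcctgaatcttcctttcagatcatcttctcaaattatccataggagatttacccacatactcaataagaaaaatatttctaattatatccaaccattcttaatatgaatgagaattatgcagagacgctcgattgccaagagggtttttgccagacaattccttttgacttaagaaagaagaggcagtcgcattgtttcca
Myh1 (chr11:67199852-67200101, plus strand): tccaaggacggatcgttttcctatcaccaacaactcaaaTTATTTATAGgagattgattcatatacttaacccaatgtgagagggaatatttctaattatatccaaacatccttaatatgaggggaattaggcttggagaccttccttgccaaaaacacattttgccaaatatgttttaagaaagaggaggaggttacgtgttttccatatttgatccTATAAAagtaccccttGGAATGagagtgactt
Myh4 (chr11:67237562-67237811, plus strand): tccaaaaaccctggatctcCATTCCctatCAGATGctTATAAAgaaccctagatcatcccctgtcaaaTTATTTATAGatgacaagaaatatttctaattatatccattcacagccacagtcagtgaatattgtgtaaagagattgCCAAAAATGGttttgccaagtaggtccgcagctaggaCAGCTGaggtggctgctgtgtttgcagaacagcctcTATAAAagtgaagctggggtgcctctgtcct
Tnnc1 (chr14:31208062-31208311, plus strand): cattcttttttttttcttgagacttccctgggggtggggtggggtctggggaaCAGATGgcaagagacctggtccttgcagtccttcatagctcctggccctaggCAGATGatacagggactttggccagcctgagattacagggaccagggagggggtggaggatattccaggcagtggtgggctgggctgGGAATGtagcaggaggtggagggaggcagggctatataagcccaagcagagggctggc

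E-boxes are bound by myogenic basic helix-loop-helix factors, MCAT elements by TEAD factors, and MEF2 and CArG sites by MEF2 and SRF. The window of Myh4 held 2 E-boxes, 1 MCAT, 1 MEF2 and 1 CArG match and 3 TATA matches. That of Myh1 held 1 MCAT, 1 MEF2 and 2 TATA matches, and that of Myh2 held 0 of all 5. In both Myh4 and Myh1 a TATA match on the opposite strand lies within the MEF2 match. Tnnc1 had 2 E-boxes and 1 MCAT match, and Mybpc2 had 1 of each. RefSeq windows were found for 37 of the 48 genes, 44 windows in all. An E-box was in 84.1% of these windows, against 66.2% of all 32851 windows of this length, and MCAT in 22.7% against 12.6%. MEF2 was in 15.9% against 2.92%, CArG in 13.6% against 1.47%, and TATA in 13.6% against 12.4%. The shares are of windows, so genes with several starts count more than once, such as Ldb3 for CArG and Mb and Tnni1 for the E-box. These are matches of letters, not measured sites. Actn3, Jph1, Myom2, Myot, Myoz1, Neb, Tcap, Tnni2, Tnnt3, Trdn and Xirp1 were not among the windows used here.

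Of the fast fibre genes 9 of 11 were called lower and 2 did not pass, none being higher, with a median log2 fold change of -0.58. Leaving out 1 library gave 5 (without anti-OSM replicate 1) to 9 lower. Myh4, the myosin heavy chain of the fastest (IIb) fibres (gene ID 17884, chromosome 11, 67237812 to 67260447, GRCm38), was at 237, 275 and 301 CPM with anti-OSM and 642, 633 and 565 CPM with anti-Ly6G. Every anti-OSM library lay far below the lowest anti-Ly6G library, and the groups did not overlap. Its means were 271 ± 32.0 CPM against 613 ± 41.9 CPM (SD, n = 3), a log2 change of -1.18 (SE 0.10, edgeR adjusted p = 0.00125). Myh2, the IIa myosin of the same row of genes (chromosome 11, 67171027 to 67197517), was at 111, 139.6 and 152 CPM with anti-OSM and 234, 241 and 239.8 CPM with anti-Ly6G. The 3 anti-Ly6G libraries were close together and far above the anti-OSM libraries, with a log2 change of -0.83 (SE 0.11, edgeR adjusted p = 0.00489). Myh1, the IIx myosin between them (chromosome 11, 67200102 to 67224577), was per length the most abundant myosin (mean 362 TPM), at 847, 895 and 977 CPM with anti-OSM and 1206, 1160.1 and 1199 CPM with anti-Ly6G. Again the groups did not overlap, but the fall was smaller, a log2 change of -0.39 (SE 0.08, edgeR adjusted p = 0.0205), and was not called without either of anti-OSM replicates 1 and 2 or anti-Ly6G replicate 1 (adjusted p up to 0.0818). These myosin genes are close relatives, and the handling of reads that match several of them is not given in these sources, so their split is uncertain.

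Mybpc2, the fast myosin-binding protein C, which sits on the thick filament (gene ID 233199, chromosome 7, 44501699 to 44524715), was at 14.3, 12.7 and 15.6 CPM with anti-OSM and 38.7, 37.3 and 38.7 CPM with anti-Ly6G. The anti-Ly6G libraries lay close together, and the anti-OSM mean was 37.2% of theirs by the fitted fold, a log2 change of -1.43 (SE 0.09, edgeR adjusted p = 5.19e-04). The fast troponins, which switch the thin filament on with calcium, fell by similar amounts. Tnnt3 (troponin T, the tropomyosin-binding subunit) was at 260.1, 274 and 318 CPM with anti-OSM and 422, 385 and 447 CPM with anti-Ly6G, a log2 change of -0.56 (SE 0.10, edgeR adjusted p = 0.0119). Tnni2 (troponin I, the inhibitory subunit) was at 152, 156 and 177 CPM with anti-OSM and 252, 225 and 257 CPM with anti-Ly6G, a log2 change of -0.60 (SE 0.09, edgeR adjusted p = 0.00689). Tnnc2 (troponin C, the calcium sensor) was at 130.3, 128 and 155 CPM with anti-OSM and 229, 184 and 207 CPM with anti-Ly6G, a log2 change of -0.58 (SE 0.10, edgeR adjusted p = 0.0131). None of the 3 overlapped between groups, and in each anti-OSM replicate 3 was the highest of its group. Tnnt3 was not called without anti-OSM replicate 1, nor Tnnc2 without replicate 1 or 2 (adjusted p up to 0.0565).

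The fast light chains did not pass. Mylpf, the regulatory light chain and per length the most abundant member after Acta1 at 963 TPM, was at 295, 275 and 361 CPM with anti-OSM and 413, 326 and 428 CPM with anti-Ly6G. Anti-OSM replicate 3 lay above anti-Ly6G replicate 2, so the groups overlapped, and the log2 fold change was -0.33 (95% interval -0.63 to -0.02, edgeR adjusted p = 0.149). Myl1, the essential light chain, was at 224, 201 and 283 CPM with anti-OSM and 288, 238 and 300.4 CPM with anti-Ly6G and likewise overlapped, with a log2 fold change of -0.23 (95% interval -0.54 to 0.09, edgeR adjusted p = 0.323). Myoz1, a Z-disc protein of fast fibres that binds calcineurin, was at 24.2, 27.2 and 26.9 CPM with anti-OSM and 42.8, 41.8 and 46.7 CPM with anti-Ly6G, without overlap, a log2 change of -0.75 (SE 0.08, edgeR adjusted p = 0.00253). Actn3, the fast isoform of alpha-actinin at the Z-disc, ranged from 31.1 to 58.5 CPM over the 6 libraries, a log2 change of -0.54 (SE 0.13, edgeR adjusted p = 0.0368), a call that did not hold without either of anti-OSM replicates 1 and 2 or either of anti-Ly6G replicates 2 and 3 (adjusted p up to 0.120).

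Slow fibre genes were mixed: 2 of 8 were called lower, 6 did not pass and none was higher, with a median log2 fold change of -0.31. The count was 1 without either of anti-OSM replicates 1 and 2 or either of anti-Ly6G replicates 1 and 2. Whether slow genes fell less often than fast genes was not tested. Myh7, the slow (type I) myosin heavy chain, was at 10.3, 17.3 and 14.5 CPM with anti-OSM and 27.4, 36.9 and 31.1 CPM with anti-Ly6G. Its anti-OSM libraries all lay below the anti-Ly6G libraries, and its fall was as large as that of Myh4 by point estimate, a log2 change of -1.18 (SE 0.19, edgeR adjusted p = 0.0118). Myl2, the slow regulatory light chain, was at 9.89, 11.1 and 11.7 CPM with anti-OSM and 14.5, 17.3 and 14.3 CPM with anti-Ly6G, without overlap, a log2 change of -0.49 (SE 0.11, edgeR adjusted p = 0.0264). The Myl2 call was lost without any 1 of the libraries other than anti-Ly6G replicate 3 (adjusted p up to 0.0922).

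The slow troponins did not pass, and their values were close to or above those of anti-Ly6G. Tnni1 was at 17.7, 15.4 and 17.7 CPM with anti-OSM and 17.1, 17.6 and 14.9 CPM with anti-Ly6G, with interleaved groups and a log2 fold change of 0.04 (95% interval -0.19 to 0.26, edgeR adjusted p = 0.845). Its sign turned without anti-OSM replicate 3 and also without anti-Ly6G replicate 3. Tnnt1 was at 56.3, 48.9 and 64.6 CPM with anti-OSM and 68.0, 58.0 and 62.5 CPM with anti-Ly6G, with anti-OSM replicate 3 above 2 of the anti-Ly6G libraries, and a log2 fold change of -0.15 (95% interval -0.40 to 0.09, edgeR adjusted p = 0.391). Tnnc1, which slow fibres share with the heart, was at 12.3, 8.54 and 11.8 CPM with anti-OSM and 8.98, 9.02 and 8.29 CPM with anti-Ly6G. Anti-OSM replicates 1 and 3 lay above every anti-Ly6G library and replicate 2 lay among them, with a log2 fold change of 0.31 (95% interval -0.01 to 0.64, edgeR adjusted p = 0.190).

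The other slow genes lay between these ends. Mybpc1, the slow myosin-binding protein C, was at 178, 169 and 222 CPM with anti-OSM and 243, 231 and 253 CPM with anti-Ly6G, without overlap and with a log2 fold change of -0.36 (95% interval -0.59 to -0.12, edgeR adjusted p = 0.0626). It passed in DESeq2 (adjusted p = 0.0123). Mybpc1 averaged 109 TPM over the 6 libraries, against 14.9 TPM for Mybpc2 and 7.90 TPM for Myh7, so it may not report slow fibres alone. Myl3, the slow essential light chain, was at 5.27, 5.29 and 4.22 CPM with anti-OSM and 6.55, 5.69 and 6.64 CPM with anti-Ly6G, without overlap and with a log2 fold change of -0.35 (95% interval -0.66 to -0.05, edgeR adjusted p = 0.122). Myoz2, the slow and cardiac relative of Myoz1, was at 22.7, 19.4 and 25.5 CPM with anti-OSM and 26.1, 26.4 and 28.4 CPM with anti-Ly6G, without overlap and with a log2 fold change of -0.26 (95% interval -0.51 to -0.02, edgeR adjusted p = 0.144).

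Myosin makeup was read per transcript length. Of the summed TPM of 6 myosin heavy chain genes, Myh4 made up 18.6%, 19.8% and 19.6% in the anti-OSM libraries against 29.1%, 29.2% and 26.6% in the anti-Ly6G libraries. Myh1 made up 66.6%, 64.4% and 63.7% in the anti-OSM libraries against 54.8%, 53.6% and 56.5% in the anti-Ly6G libraries. The share of Myh4 was thus lower, and that of Myh1 higher, in every anti-OSM library than in any anti-Ly6G library. Slow Myh7 was 0.805% to 1.70% in all 6 libraries, and anti-OSM replicate 2 (1.24%) was level with anti-Ly6G replicate 1 (1.24%). Embryonic Myh3 made up 3.94%, 3.37% and 4.49% in the anti-OSM libraries against 3.09%, 3.19% and 3.03% in the anti-Ly6G libraries. Its share was thus higher in every anti-OSM library, but its own level was not. Myh3 was at 55.6 CPM with anti-OSM against 67.4 CPM with anti-Ly6G on average, a log2 fold change of -0.28 (edgeR adjusted p = 0.217). Perinatal Myh8 made up between 1.20% and 1.43%. Myh2 made up 8.67%, 9.97% and 9.82% in the anti-OSM libraries against 10.5%, 11.1% and 11.2% in the anti-Ly6G libraries, lower in every anti-OSM library. The shares sum to a fixed whole and are not independent of each other.

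**Figure D2:**
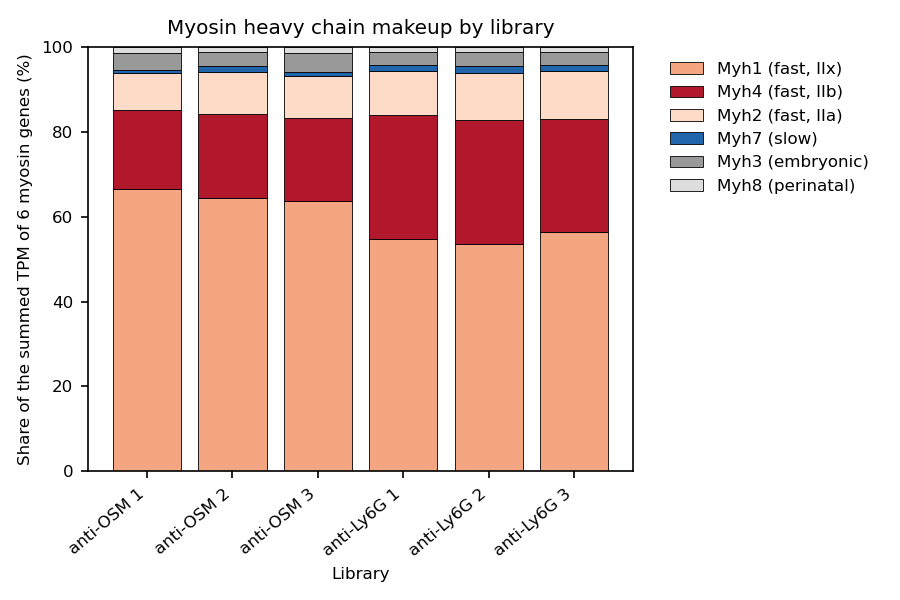
Stacked bars give, for each of the 6 libraries, the percentage of the summed TPM of 6 myosin heavy chain genes that each gene takes. The Myh4 block is 18.6% to 19.8% in the anti-OSM libraries and 26.6% to 29.2% in the anti-Ly6G libraries, and the slow Myh7 block is thin in all.

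Ratios of paired genes within a library ask about isoform balance apart from the amount of muscle RNA. In all 10 pairs were compared, and an exact 2-sided permutation test of 3 against 3 libraries cannot go below 0.10, so none can pass. In 7 of the pairs every anti-OSM ratio lay above every anti-Ly6G ratio, each at that smallest p of 0.1 (0.143 adjusted over the 10 pairs). The second gene of each of those 7 pairs was itself called lower, so the count partly repeats those calls. Myh4 is the second gene of several pairs, which are therefore not independent. The share of non-overlapping ratios among other gene pairs was not computed. The slow over fast TPM ratio of troponin I, Tnni1/Tnni2, was 0.0762, 0.0640 and 0.0659 in the anti-OSM libraries against 0.0419, 0.0477 and 0.0372 in the anti-Ly6G libraries. Troponin C, Tnnc1/Tnnc2, had 0.0904, 0.0640 and 0.0734 in the anti-OSM libraries against 0.0377, 0.0470 and 0.0385 in the anti-Ly6G libraries, and troponin T, Tnnt1/Tnnt3, had 0.211, 0.173 and 0.199 in the anti-OSM libraries against 0.159, 0.151 and 0.137 in the anti-Ly6G libraries. On log2 counts these 3 ratios differed by 0.63, 0.88 and 0.40, anti-OSM minus anti-Ly6G. Mybpc1/Mybpc2 differed most, by 1.07, with TPM ratios of 11.1, 12.3 and 12.7 in the anti-OSM libraries against 5.65, 5.48 and 5.81 in the anti-Ly6G libraries. As Mybpc1 may not report slow fibres alone, that pair need not stand for slow over fast fibres. Myoz2/Myoz1 differed by 0.48, Myh1/Myh4 by 0.79 and Myh2/Myh4 by 0.34. The slow over fast myosin ratio Myh7/Myh4 overlapped between groups and differed by -0.02 (exact permutation p = 1). The light chain pairs Myl2/Mylpf (-0.17, exact permutation p = 0.6) and Myl3/Myl1 (-0.12, exact permutation p = 0.9) overlapped too.

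**Figure D3:**
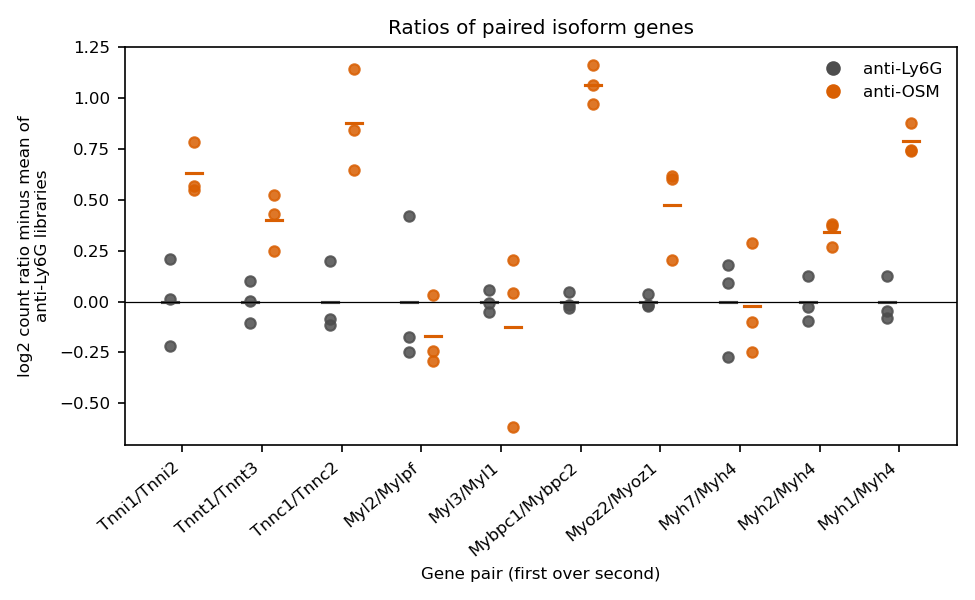
Points are libraries and short bars group means of the log2 count ratio of each gene pair, set to the mean of the 3 anti-Ly6G libraries. The 7 pairs with no overlap all have the orange anti-OSM points on top, while Myl2/Mylpf, Myl3/Myl1 and Myh7/Myh4 mix.

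Sarcomere genes assigned here to neither fibre type were lower in 9 of 17, higher in 0 and did not pass in 8, with a median log2 fold change of -0.43. Some of them may still differ between fibre types. Without 1 library 3 (anti-OSM replicate 1), 4 (anti-OSM replicate 2 or anti-Ly6G replicate 1), 6 (anti-Ly6G replicate 2) or up to 10 (anti-OSM replicate 3) were lower. Ttn, which encodes titin, the spring that spans from Z-disc to M-band, was at 306, 307 and 359.8 CPM with anti-OSM and 588, 709 and 673 CPM with anti-Ly6G, a log2 change of -1.02 (SE 0.10, edgeR adjusted p = 0.00222). Its highest anti-OSM library was far below its lowest anti-Ly6G library. Neb, which encodes nebulin, the ruler of the thin filament, was at 246, 229 and 299 CPM with anti-OSM and 292, 318 and 315 CPM with anti-Ly6G. Anti-OSM replicate 3 overlapped anti-Ly6G replicate 1, and the log2 fold change was -0.26 (95% interval -0.49 to -0.02, edgeR adjusted p = 0.138). Acta1, skeletal alpha-actin of the thin filament and per length the most abundant member at 1302 TPM, was at 748, 703 and 906 CPM with anti-OSM and 1039, 988 and 1174 CPM with anti-Ly6G. The groups did not overlap, with a log2 change of -0.44 (SE 0.11, edgeR adjusted p = 0.0403), but of the fits that left out 1 library the call held only in the one without anti-OSM replicate 3. Tpm2, a tropomyosin that covers the myosin sites on actin, was at 266, 283 and 341 CPM with anti-OSM and 438, 375 and 432 CPM with anti-Ly6G, without overlap, a log2 change of -0.48 (SE 0.11, edgeR adjusted p = 0.0254). Its call was lost without either of anti-OSM replicates 1 and 2 or anti-Ly6G replicate 1 (adjusted p up to 0.0921).

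The M-band crosslinkers Myom1 (-0.68, SE 0.09, edgeR adjusted p = 0.00470) and Myom2 (-0.73, SE 0.08, edgeR adjusted p = 0.00258) fell and kept their calls without each library. At the Z-disc, Ldb3 (-0.62, SE 0.11, edgeR adjusted p = 0.0119), Myot (-0.43, SE 0.10, edgeR adjusted p = 0.0266) and the alpha-actinin Actn2 (-0.51, SE 0.13, edgeR adjusted p = 0.0428) were lower, as was the actin-binding Xirp1 (-0.71, SE 0.19, edgeR adjusted p = 0.0485). Those 4 calls did not survive every library: Ldb3 lost its call without anti-OSM replicate 1, Myot without either of anti-OSM replicates 1 and 2 or anti-Ly6G replicate 1, Actn2 without any but anti-OSM replicate 3, and Xirp1 without any but anti-OSM replicate 3 or anti-Ly6G replicate 3 (adjusted p up to 0.145). The titin cap Tcap (-0.23, 95% interval -0.42 to -0.03, edgeR adjusted p = 0.119), the intermediate filament Des (-0.34, 95% interval -0.59 to -0.08, edgeR adjusted p = 0.0866) and Xirp2 (-0.30, 95% interval -0.54 to -0.06, edgeR adjusted p = 0.103) did not overlap between groups but did not pass. The turnover adaptor Klhl41 (-0.24), the pointed-end cap Tmod4 (-0.22) and Smpx (-0.14) overlapped between groups, with adjusted p of 0.216, 0.212 and 0.623 in edgeR. Lmod2, which lengthens thin filaments, was at 28.6, 28.0 and 37.8 CPM with anti-OSM and 32.5, 31.0 and 30.5 CPM with anti-Ly6G. Anti-OSM replicate 3 was the highest of all 6 and the other 2 anti-OSM libraries the lowest, so the log2 fold change was 0.01 (95% interval -0.26 to 0.28, edgeR adjusted p = 0.971) and its sign turned in 5 alternatives.

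**Figure D4:**
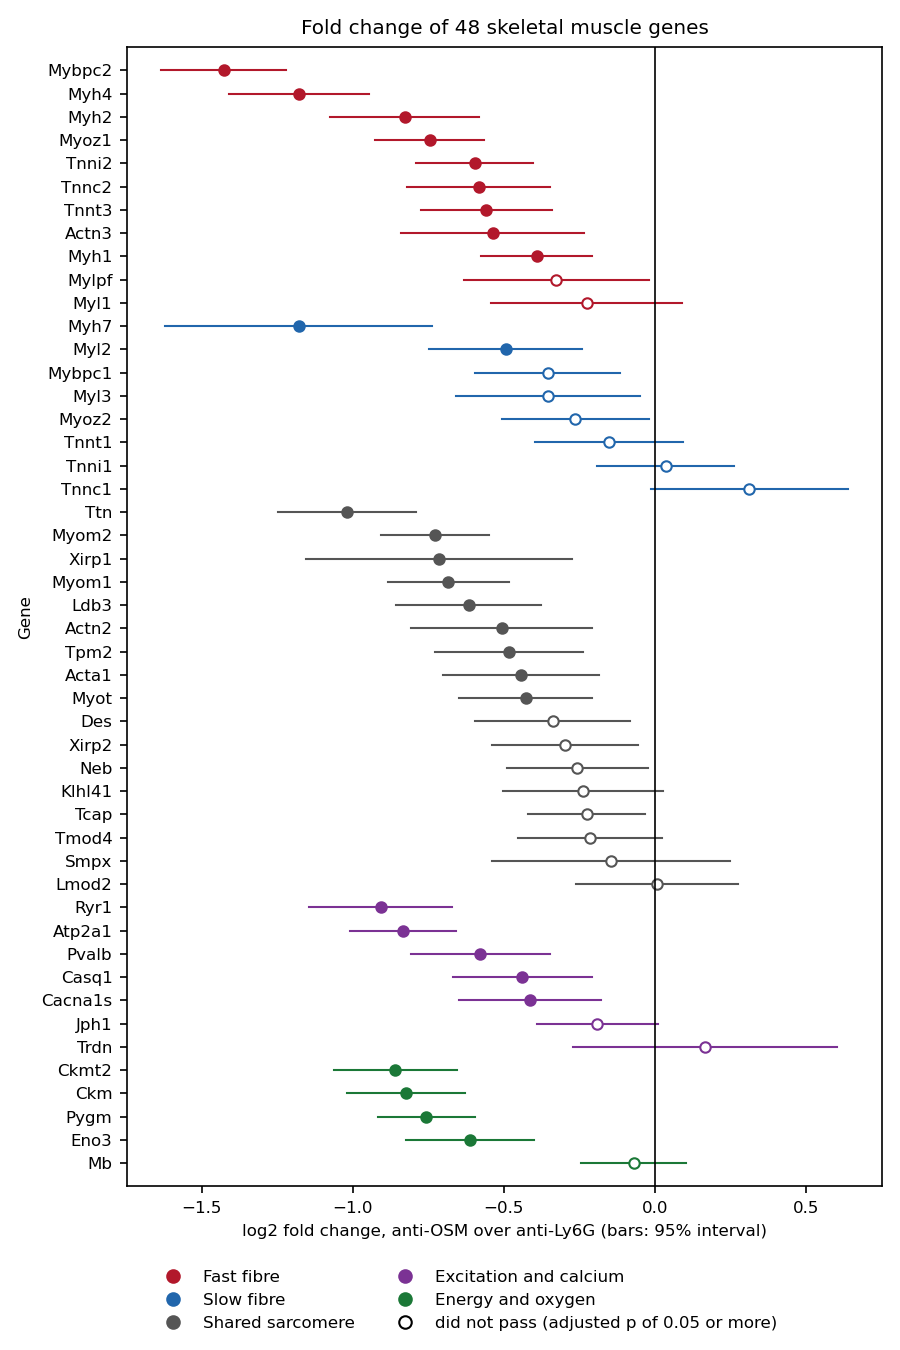
Points are log2 fold changes, anti-OSM over anti-Ly6G, of the 48 genes with 95% intervals, ordered within roles; filled points passed at an adjusted p under 0.05. Filled points fall between -1.43 (Mybpc2) and -0.39 (Myh1), and 4 genes have point estimates above 0.

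Excitation and calcium genes were lower in 5 of 7, higher in 0 and did not pass in 2, with a median log2 fold change of -0.44. Without 1 library 2 (anti-OSM replicate 1), 3 (either of anti-OSM replicates 2 and 3) or 4 were lower. Atp2a1, the calcium pump SERCA1 that returns calcium to the store of fast fibres (gene ID 11937, chromosome 7, 126445858 to 126463103), was at 593, 639 and 643 CPM with anti-OSM and 1059, 1164 and 1118 CPM with anti-Ly6G. The 2 groups were each tight and far apart, a log2 change of -0.83 (SE 0.08, edgeR adjusted p = 0.00177). Ryr1, the release channel, was at 89.0, 87.3 and 104 CPM with anti-OSM and 156, 197 and 173 CPM with anti-Ly6G, again without overlap, a log2 change of -0.91 (SE 0.10, edgeR adjusted p = 0.00308). Both kept their calls without each library. Cacna1s, the voltage sensor that gates Ryr1, had a smaller fall, a log2 fold change of -0.41 (SE 0.10, edgeR adjusted p = 0.0369), which passed in 1 of the 6 fits that left out a library, the one without anti-Ly6G replicate 1. Casq1, calsequestrin, which binds calcium in the store, was at 62.5, 66.1 and 79.9 CPM with anti-OSM and 96.5, 86.6 and 99.5 CPM with anti-Ly6G, a log2 change of -0.44 (SE 0.10, edgeR adjusted p = 0.0278). Pvalb, parvalbumin, a soluble calcium buffer of fast fibres, was at 52.3, 64.6 and 57.6 CPM with anti-OSM and 89.9, 76.9 and 93.7 CPM with anti-Ly6G, a log2 change of -0.58 (SE 0.10, edgeR adjusted p = 0.0125). Neither overlapped between groups; Casq1 lost its call without either of anti-OSM replicates 1 and 2 or anti-Ly6G replicate 1 (adjusted p up to 0.101), and Pvalb without either of anti-OSM replicates 1 and 3.

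Trdn and Jph1, which act with Ryr1 and Cacna1s at the junction between membrane and store, did not pass. Trdn, triadin, which anchors Casq1 to Ryr1, was at 40.7, 38.8 and 53.0 CPM with anti-OSM and 47.1, 29.6 and 41.4 CPM with anti-Ly6G. Its anti-OSM replicate 3 was the highest and its anti-Ly6G replicate 2 the lowest, and the log2 fold change was 0.17 (95% interval -0.27 to 0.60, edgeR adjusted p = 0.603). Without anti-Ly6G replicate 2 it was near 0 with the opposite sign. Jph1, junctophilin, which holds the 2 membranes together, ranged from 13.7 to 17.4 CPM over the 6 libraries, without overlap and with a log2 fold change of -0.19 (95% interval -0.39 to 0.01, edgeR adjusted p = 0.193).

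Energy genes were lower in 4 of 5, and those 4 kept their calls without each library; the median log2 fold change was -0.76. Ckm, the cytosolic creatine kinase that buffers ATP at the myofibril (gene ID 12715, chromosome 7, 19411094 to 19421583), was at 194, 227 and 234 CPM with anti-OSM and 387, 369 and 401 CPM with anti-Ly6G, a log2 change of -0.82 (SE 0.09, edgeR adjusted p = 0.00247). Ckmt2, its mitochondrial partner, ranged from 27.0 to 33.7 CPM with anti-OSM and 52.9 to 56.8 CPM with anti-Ly6G, a log2 change of -0.86 (SE 0.09, edgeR adjusted p = 0.00247). Pygm, the muscle glycogen phosphorylase, was at 72.5, 83.2 and 82.0 CPM with anti-OSM and 133, 134 and 134 CPM with anti-Ly6G, a log2 change of -0.76 (SE 0.07, edgeR adjusted p = 0.00177). Eno3, the muscle enolase of glycolysis, was at 105, 108 and 131 CPM with anti-OSM and 179, 167 and 181 CPM with anti-Ly6G, a log2 change of -0.61 (SE 0.09, edgeR adjusted p = 0.00837). In none of these 4 did the groups overlap. Mb, myoglobin, the oxygen store, was the exception, at 235, 231 and 260.1 CPM with anti-OSM and 265, 238 and 259.9 CPM with anti-Ly6G. Its libraries interleaved, and its 95% interval of -0.24 to 0.10 around -0.07 (edgeR adjusted p = 0.585) lay wholly above the intervals of the other 4.

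Other genes of the same apparatus were read from 3 further lists of 82 genes. Of these 38 were lower, 3 higher and 41 did not pass, with a median log2 fold change of -0.40. Further sarcomere and structural genes had 11 of 27 lower and 1 higher, and among the lower was Mylk2, the skeletal myosin light chain kinase (-0.93, SE 0.09, edgeR adjusted p = 0.00233). Further excitation genes had 11 of 34 lower and 2 higher, led by Jph2, a relative of Jph1 (-0.73, SE 0.08, edgeR adjusted p = 0.00253), and Kcnj12, an inward rectifier channel (-1.11, SE 0.12, edgeR adjusted p = 0.00253). Atp2a2, the calcium pump of slow fibres and of most other cells, was at 349 ± 11.4 CPM against 460.2 ± 10.4 CPM (SD, n = 3), with a log2 fold change of -0.40 (SE 0.07, edgeR adjusted p = 0.0105); it was chosen after its values were seen. Further energy genes had 16 of 21 lower and 0 higher, led by Adssl1, a purine cycle enzyme (-0.50, SE 0.07, edgeR adjusted p = 0.00533), and Cox8b, a cytochrome oxidase subunit (-0.73, SE 0.11, edgeR adjusted p = 0.00706). No gene of that last list was higher in DESeq2 and 0 were higher at an unadjusted p under 0.05. The first list had 3 lower without anti-OSM replicate 2, 5 without anti-OSM replicate 1 and without anti-Ly6G replicate 1 and 6 without anti-Ly6G replicate 2. The excitation list had 7 without either of anti-OSM replicates 1 and 2. The energy list had 5 without anti-OSM replicate 2, 6 without anti-OSM replicate 1 and 7 without anti-Ly6G replicate 1. Without 1 library the 3 lists had 0 higher, except 2 in the excitation list without anti-OSM replicate 2.

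Transcript length, as the deposited counts and FPKM imply it, was set beside the fold change. The 13 members of 5000 bases or more had a median log2 fold change of -0.71 with 10 lower, the 14 from 2000 up to 5000 bases -0.46 with 9 lower, and the 21 under 2000 bases -0.35 with 10 lower. Over all tested genes the medians of the same classes were -0.03, 0.01 and 0.04. Across the 48 members Spearman's rho between fold change and length was -0.353, against -0.0704 across all 19915 genes and -0.0666 across the 82 further muscle genes. The members share the same 6 libraries and are not independent, so these are descriptions. The longest members did not move alike: Ttn (121047 bases) and Ryr1 (17357 bases) were among the largest falls, and Neb (25743 bases) and Xirp2 (13494 bases) did not pass. Of the short genes, Ckmt2 (1678 bases) had a log2 fold change of -0.86 and Ckm (1598 bases) of -0.82. The part of length in the falls was not tested.

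**Figure D5:**
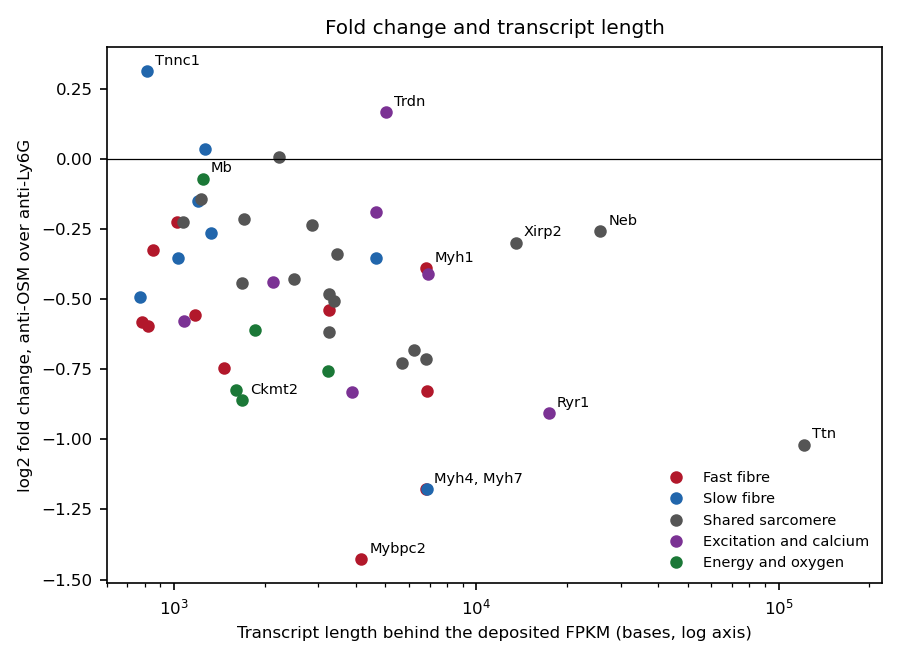
Each point is a member, with transcript length on a log axis and log2 fold change, anti-OSM over anti-Ly6G, on the vertical axis; colours are roles. Ttn and Neb sit at the long end at -1.02 and -0.26, and Mybpc2 is lowest at -1.43 with 4150 bases.

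Of the markers of other tissues of the ear, cartilage genes had 11 of 17 lower, 0 higher and 6 that did not pass (median -0.59; 9 to 11 lower without 1 library; 0 higher at an unadjusted p under 0.05 and 0 in DESeq2), with Col9a2 at -1.00 and Col9a3 at -0.71. Their summed level was 522 to 554 CPM in the anti-OSM libraries and 746 to 842 with anti-Ly6G, while Matn1 was at 0 to 0.0876 CPM. Fibroblast genes had 5 of 8 higher, among them Mfap4 (0.53) and Dcn (0.57), but 1 without any 1 anti-OSM library, 3 without anti-Ly6G replicate 1 and 8 without anti-Ly6G replicate 3. In DESeq2 7 of the fibroblast genes were higher and 0 lower. Adipocyte genes had 2 of 14 lower, Plin4 (-0.67) and Cfd (-0.45), with 0 or 1 lower without any 1 library. Schwann cell genes had 2 lower, Ncmap (-0.48) and S100b (-0.55), and 2 higher of 12, with 0 to 2 lower and 0 or 1 higher without 1 library. Of 10 keratinocyte genes 1 was lower, Krt14 (-0.55), with 0 to 3 lower without 1 library, and Krt1 had -0.68 (edgeR adjusted p = 0.0522). In DESeq2 4 keratinocyte genes were lower and 0 higher, and 4 were lower at an unadjusted p under 0.05 in edgeR. Of 8 endothelial genes none passed edgeR or DESeq2 or had an unadjusted p under 0.05 on the lower side (1 on the higher side), with Emcn at 0.25 and Cldn5 at 0.20. The part of tissue makeup in the muscle result was not tested.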

How the data were processed

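RNA was sequenced from ear skin in 16 labelled libraries, of which the 6 antibody libraries were analysed here, in 2 groups of 3, and the other 10 were not analysed here. The deposited table gives read counts, FPKM (depth per kilobase of transcript) and TPM per gene, as its file headers name them. Per the submitters' processing notes, StringTie 2.1.3b, HISAT2 2.1.0, edgeR 3.40.2, Trimmomatic 0.38, SAMtools 1.9 and bcl2fastq 2.20.0 were used on build mm10, with no roles stated, and strand and the treatment of shared reads are not given in the sources used here. Counts made without strand would mix overlapping genes.

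The deposited counts were fitted with edgeR 4.0.16 (filterByExpr, TMM scaling, robust quasi-likelihood F-test, R 4.3.3), with Benjamini-Hochberg adjustment over 19915 genes and a threshold of 0.05. CPM values use TMM-scaled totals (unscaled, 52163179 to 64122588), shares of counts the unscaled ones, floors cover counting error only, and the 95% intervals of fold changes come from the edgeR fit and include the variation between libraries. TPM as the authors deposited it served levels between genes and deposited FPKM with the counts gave transcript length. Isoform pairs were tested with exact permutation tests (scipy 1.17.1). The fit was tested on simulated counts in which 200 genes, picked at random from all tested genes, were changed. The real data had far more calls, 1249 lower and 1157 higher, so the simulated rates need not hold for the members. The fit recovered 46% of changes of 1.5 fold, 66% of 2 fold, 94% of 4 fold and 98% of 8 fold, and 5.59% of its calls were false. A gene that did not pass may therefore still differ by a small fold. Alternatives were other scaling, no filter, a non-robust fit, DESeq2 1.42.0, a replicate block and leaving out each library. Positions follow RefSeq GRCm38.p6.

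Members and lists were chosen with earlier results of these data known. Values in every library are given for the 4 members of each role with the largest mean CPM, for each gene of the pairs and for members that go against their role, and of each other list the 2 genes with the smallest p are named, except 1 gene that is not reported here.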

Additional observations from a re-analysis of the deposited data

How the results depend on the processing

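Of the 48 members 29 were lower in edgeR, also with RLE size factors, TMM factors computed without tissue genes or a non-robust fit, 28 without a filter on low counts and 31 in DESeq2. No member was higher in any of these or without any 1 library. Without 1 library in turn, members lower with anti-OSM numbered 15 to 28, genes lower with anti-OSM over all tested were 420 to 1447 and genes higher with anti-OSM 240 to 1545; fewer libraries entered those fits. Tnni1 ranged from -0.0371 (without anti-Ly6G replicate 3) to 0.0999, with -0.0027 without anti-OSM replicate 3, and Trdn from -0.0027 (without anti-Ly6G replicate 2) to 0.3114. Lmod2 turned to -0.0018 with no filter on low counts, -0.0048 with the replicate block, -0.1495 without anti-OSM replicate 3, -0.0001 without anti-Ly6G replicate 2 and -0.0142 without anti-Ly6G replicate 3, with at most 0.0863 without 1 library; the cause was not tested. Without 1 library in turn the differences of isoform pair ratios Myl2/Mylpf ran from -0.292 to 0.0438, isoform pair ratios Myl3/Myl1 from -0.287 to 0.123 and isoform pair ratios Myh7/Myh4 from -0.173 to 0.0933, and the other 7 stayed positive. The samples share only a replicate number: same-numbered samples correlated at 0.012, 0.037 and 0.124, and anti-OSM replicate 1 correlated best with anti-Ly6G replicate 2 (0.081). The replicate block gave 32 lower members, adding Mylpf, Mybpc1, Des and Xirp2 and dropping Xirp1 (edgeR adjusted p = 0.0513), and with it Chrng (0.0727) and Chrnd (0.0569) did not pass.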

Other observations

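Genes of a list for immature or denervated muscle, most of which adult innervated fibres keep low, were mixed in direction. Of 11 tested genes of this list 2 were higher and 1 lower, with a median log2 fold change of 0.24. Over all tested genes 5.81% were higher and 6.27% lower. Myog, myogenin, a transcription factor of muscle differentiation, was at 2.58, 2.64 and 3.29 CPM with anti-OSM and 0.815, 0.866 and 1.12 CPM with anti-Ly6G, without overlap, a log2 change of 1.60 (SE 0.19, edgeR adjusted p = 0.00383). Chrng, the fetal gamma subunit of the acetylcholine receptor, was at 0.697, 0.812 and 1.10 CPM with anti-OSM and 0.245, 0.204 and 0 CPM with anti-Ly6G, with 0 counts in anti-Ly6G replicate 3, a log2 change of 2.55 (SE 0.68, edgeR adjusted p = 0.0487). That call held in 1 of the 6 fits that left out a library, the one without anti-Ly6G replicate 3 (edgeR adjusted p up to 0.156). Chrna1, Chrnd, Chrnb1, Chrne and Myl4, given next, are not of this list. Chrna1, Chrnd and Myl4 are the 3 higher genes already counted among the 82 further muscle genes, so they add no separate calls. Of the receptor subunits that adult muscle keeps, Chrna1 was higher, at 13.2, 9.20 and 13.1 CPM with anti-OSM and 8.62, 8.17 and 7.71 CPM with anti-Ly6G, a log2 change of 0.53 (SE 0.15, edgeR adjusted p = 0.0496). Chrnd was higher too, at 5.31, 3.01 and 5.64 CPM with anti-OSM and 2.69, 2.58 and 1.78 CPM with anti-Ly6G, a log2 change of 0.98 (SE 0.26, edgeR adjusted p = 0.0470). Both calls held in 1 of the 6 fits, the one without anti-OSM replicate 2 (edgeR adjusted p up to 0.172 and 0.154). The subunits Chrnb1 (0.09, edgeR adjusted p = 0.727) and Chrne (0.05, edgeR adjusted p = 0.903) overlapped between groups and did not pass. Myl4, an atrial and embryonic light chain, was at 4.14, 4.28 and 7.17 CPM with anti-OSM and 2.43, 3.31 and 2.55 CPM with anti-Ly6G, a log2 change of 0.91 (SE 0.24, edgeR adjusted p = 0.0440). Mymk, a membrane protein needed for myoblast fusion, was at 0.904, 0.913 and 1.82 CPM with anti-OSM and 0.245, 0.544 and 0.0776 CPM with anti-Ly6G and did not pass (edgeR adjusted p = 0.0555). Perinatal Myh8 was lower, at 17.8, 16.9 and 22.4 CPM with anti-OSM and 27.8, 27.6 and 26.0 CPM with anti-Ly6G, a log2 change of -0.51 (SE 0.11, edgeR adjusted p = 0.0250), a call that held in 2 of the 6 fits, those without anti-OSM replicate 3 and without anti-Ly6G replicate 3, while Myog kept its call in all 6. The myoblast factors Myod1 (-0.32, edgeR adjusted p = 0.342) and Pax7 (0.32, edgeR adjusted p = 0.478) did not pass. Chrng, Chrna1, Chrnd, Chrnb1, Chrne, Myl4, Mymk, Myod1 and Pax7 were named after their values were seen. The immature muscle list had 2 higher without anti-Ly6G replicate 2 or 3 and 1 higher without any other library, and 0 to 2 lower. Myl4 was called in 0 of the 6 fits.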
